A study of Mus musculus with 16 samples.

Results

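RNA labelled as coming from hippocampal neurons of adult mice was compared between animals given tamoxifen and animals given vehicle. The comparison took every library whose title names hippocampal neurons, 4 from tamoxifen-treated and 4 from control mice, which is 8 of the 16 libraries of the series. The other 8 libraries are cortical and serve here to show where the hippocampal values differ. They also enter the edgeR estimate of spread. All mice carry the label TERT-AD and the strain B6.129S6.SvEvTac, controls included, so by the labels the 2 hippocampal groups differ in tamoxifen against vehicle alone. The series describes the treated neurons as Tert-activated. The promoter that drives the inducible allele, the tamoxifen dose and timing, the age in months, the way neurons were isolated and the animal behind each library are details not given in the sources used.

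Tert encodes the reverse transcriptase subunit of telomerase, which adds repeats to chromosome ends and is usually low in mature neurons. Tamoxifen is a ligand of modified oestrogen receptors that are fused to a recombinase or a regulator so that a gene can be switched in grown animals, and it also acts on the endogenous receptor. In hippocampal tissue the neurons sit among astrocytes, microglia, oligodendrocytes and vessels, and next to the choroid plexus, a secretory epithelium of the ventricles.

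Each hippocampal library held 49991243 to 57021625 reads counted in genes. Neighbouring libraries were near repeats: within the 4 pairs made by libraries 1 and 2 or 3 and 4 of a group, the variance of genes with 20 to 200 counts was 2.58 to 2.7 times the Poisson expectation, against 5.28 to 6.08 times in the 8 other pairs of the same groups. Counts were therefore summed to 4 samples, control A and B and tamoxifen A and B, where A is libraries 1 and 2 and B is libraries 3 and 4. Values below are CPM, counts scaled to library size, in that order. Each edgeR p-value and SE rests on the spread within groups over all 8 summed samples of the series, the cortical ones included. That spread may be technical. Mitochondrial genes took 23.75 to 26.26% of the counts. The Y-linked genes Ddx3y, Eif2s3y, Kdm5d and Uty had 0 counts in all 8 libraries, and Xist was present in each. A single predicted gene, Gm26924, took from 0.202 to 3.198% of a library's counts and differed within tamoxifen sample A (0.2647 and 2.449%). 

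Markers of neurons were plentiful, with Camk2a, a kinase of excitatory synapses, at 4860 and 4970 CPM in controls and 5910 and 4260 CPM in tamoxifen samples. Markers of other cells were plentiful too. Slc1a2, the astrocytic glutamate transporter, stood at 4160, 4700, 5750 and 5300 CPM, and the microglial receptor Csf1r at 393, 622, 446 and 391 CPM. The libraries thus held RNA of glia as well as neurons, whatever their label, and they are called hippocampal samples here. Tamoxifen sample A stood apart. On a principal component analysis of the 500 most variable genes it lay at -67.48 on the first component, which held 83.7% of the variance, while the other 3 samples lay between 15.51 and 33.37. Its 10 choroid plexus markers were nearly absent: Ttr, the transthyretin carrier that this epithelium secretes, was at 14000 and 6780 CPM in the controls, 33.9 CPM in tamoxifen A and 7060 CPM in tamoxifen B. Control B stood higher in microglial markers, with a mean of 7.31 on the log2(CPM + 0.5) scale over 13 genes against 6.73 in control A and 6.92 and 6.67 in the tamoxifen samples.

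The Tert levels of the groups overlapped. Its CPM was 1.29 and 3.59 in the controls and 0.931 and 2.04 in the tamoxifen samples, so the 2 samples of a group differed more than the groups did. The count per library ran from 42 to 230 reads over the 8 libraries. The log2 fold change was -0.72 ± 0.65 (SE; edgeR adjusted p = 1), and 0.20 without control B, so its direction rested on that sample. An exact two-sided permutation test of log2(CPM + 0.5) gave p = 0.667 over the 4 samples, where the smallest possible p is 0.333, and p = 0.314 over the 8 libraries, where it is 0.0286. Whether reads of the inducible allele are counted under Tert (chr13:73627001-73649041 in mm10, ENSMUSG00000021611) was not tested. The 16 tested genes of the telomerase and telomere list, among them the telomerase cofactor Dkc1 (11.8, 11.3, 13.2 and 12 CPM), had a median log2 fold change of 0.04, with 10 above and 6 below 0, and medians between -0.02 and 0.04 when a sample was left out.

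Across all 18074 genes tested, 0 passed an adjusted p of 0.05 in edgeR's quasi-likelihood test (0%), and the smallest adjusted p was 0.333. At an unadjusted p under 0.05, 387 genes were higher (2.14%) and 266 lower (1.47%). Together these 653 genes are a smaller share than the 0.05 that would pass if no gene differed. All 4 tamoxifen libraries lay above all 4 controls for 1559 genes (8.63%) and below them for 1309 (7.24%). The log2 fold change was above 0 for 8804 genes (48.7%) and below 0 for 9268 (51.3%), with a median of -0.00715. DESeq2, run on the same 4-group design, called 9 genes (0.0498%), and limma voom with the neighbouring libraries as correlated repeats called 9 as well. Under upper quartile scaling the median of all genes shifted to 0.0346 and 72.3% of the genes at p under 0.05 were higher, against 59.3% here. Without tamoxifen sample A, 113 genes were higher and 85 lower at p under 0.05. Without tamoxifen sample B, 895 were lower. In what follows no gene passed edgeR's adjusted test, so members are described by their values, with these percentages as the background for each count.

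Genes of protein folding in the endoplasmic reticulum (ER) stood lower after tamoxifen with a common sign. ER chaperones such as Hspa5 and Hsp90b1 hold unfolded secretory proteins, and disulfide isomerases of the Pdia family pair their cysteines. In secretory stress their genes are switched on together by factors that read a shared promoter element, the ER stress response element. All 24 tested members, of the 45 gene lists examined, had a log2 fold change below 0 (51.3% of all genes), with a median log2 fold change of -0.37. For 17 of the 24 the 4 tamoxifen libraries lay below all controls, against 7.24% of all genes, and 8 had an unadjusted p under 0.05, against 1.47%. In bulk samples, fewer cells of a type and less RNA per cell cannot be told apart.

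The promoters of 4 members in which the ER stress response element was found are shown, because that element is what these genes are known to share. Each line is the 250 bases upstream of the start in RefSeq's GRCm38.p6, 5′ to 3′ on the gene's strand, with the match in capitals. The positions are chr2:34771840-34772089 for Hspa5 (plus strand), chr8:84846932-84847181 for Calr (minus), chr12:17266339-17266588 for Pdia6 (plus) and chr15:88819396-88819645 for Creld2 (plus).
Hspa5: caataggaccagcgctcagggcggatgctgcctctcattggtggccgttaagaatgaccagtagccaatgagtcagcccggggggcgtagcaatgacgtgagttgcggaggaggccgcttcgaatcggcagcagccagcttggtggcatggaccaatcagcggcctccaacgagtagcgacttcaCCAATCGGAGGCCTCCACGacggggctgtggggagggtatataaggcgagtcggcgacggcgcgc
Calr: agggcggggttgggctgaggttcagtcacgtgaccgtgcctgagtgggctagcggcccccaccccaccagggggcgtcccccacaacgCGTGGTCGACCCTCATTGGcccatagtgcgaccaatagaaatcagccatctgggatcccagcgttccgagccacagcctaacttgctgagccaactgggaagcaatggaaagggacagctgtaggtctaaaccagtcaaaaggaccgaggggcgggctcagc
Pdia6: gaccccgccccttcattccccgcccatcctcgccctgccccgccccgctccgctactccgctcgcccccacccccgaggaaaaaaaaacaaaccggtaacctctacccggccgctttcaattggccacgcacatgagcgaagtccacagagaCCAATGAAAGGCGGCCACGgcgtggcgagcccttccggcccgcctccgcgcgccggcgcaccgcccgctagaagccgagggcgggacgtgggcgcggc
Creld2: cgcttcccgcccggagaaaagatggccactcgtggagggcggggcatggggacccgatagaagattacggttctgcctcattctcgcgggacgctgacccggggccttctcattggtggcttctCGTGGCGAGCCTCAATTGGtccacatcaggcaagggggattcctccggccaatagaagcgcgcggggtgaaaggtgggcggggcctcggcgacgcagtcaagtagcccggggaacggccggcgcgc
The match starts 65 bases upstream of the start in Hspa5 and 98 in Pdia6, both read forward, and 162 in Calr and 126 in Creld2, both on the opposite strand. The motif searched was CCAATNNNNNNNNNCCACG on both strands. It occurred in 37 of 32851 promoter windows of this length (0.113%). Of the 24 list members, 18 have a window in the table and 7 of these hold the motif: the 4 shown and Canx, Dnajc3 and Hsp90b1. A match is a description of the sequence and says nothing on whether a factor was bound.

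Hspa5, also called BiP, is the chaperone that also holds the stress sensors inactive. It stood at 264 and 230 CPM in the controls against 124 and 197 CPM after tamoxifen (log2 fold change -0.62 ± 0.28). Both tamoxifen samples were lower, tamoxifen A much the more so. Per kilobase of transcript, Calr and Hspa5 were the most abundant of the list in control libraries, while in tamoxifen libraries Fkbp2, a prolyl isomerase, exceeded Hspa5 (42.6 to 44.3 RPKM): the deposited RPKM of Calr ran from 57.3 to 69.1 in control libraries and 37.6 to 46.4 in tamoxifen libraries, and that of Hspa5 from 45.6 to 54.4 and from 23.8 to 37.6. Calr, the calcium-binding lectin chaperone calreticulin, was at 276, 237, 159 and 202 CPM (-0.51 ± 0.16). Sdf2l1, a partner of Hspa5, was at 13.0, 11.6, 6.29 and 8.24 CPM (-0.76 ± 0.18), and had the smallest p of the list (0.00394 unadjusted, edgeR adjusted p = 1).

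The disulfide isomerases followed. Pdia6 read 70.2, 58.8, 39.6 and 48.9 CPM (-0.54 ± 0.16). Pdia3, which works with Calr on glycoproteins, read 159, 139, 90.2 and 119 CPM (-0.51 ± 0.17). Pdia4 read 53.8, 43.6, 23.7 and 38.6 CPM (-0.65 ± 0.28). In each of the 3 the groups were separate and tamoxifen A was the lowest sample. Among Hspa5's co-factors, Dnajb11 stood at 32.8, 28.5, 22.3 and 25.1 CPM and Hyou1, which exchanges its nucleotide, at 54.8, 46.7, 34.3 and 41.7 CPM. Hsp90b1, the ER form of Hsp90, was at 186, 179, 119 and 152 CPM. Not all members were separated. Manf, a secreted ER protein, was at 32.9, 26.7, 19.4 and 26.7 CPM, so that tamoxifen B equalled control B. The membrane lectin Canx had separate samples but differed little (260, 265, 226 and 245 CPM).

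**Figure D1:**
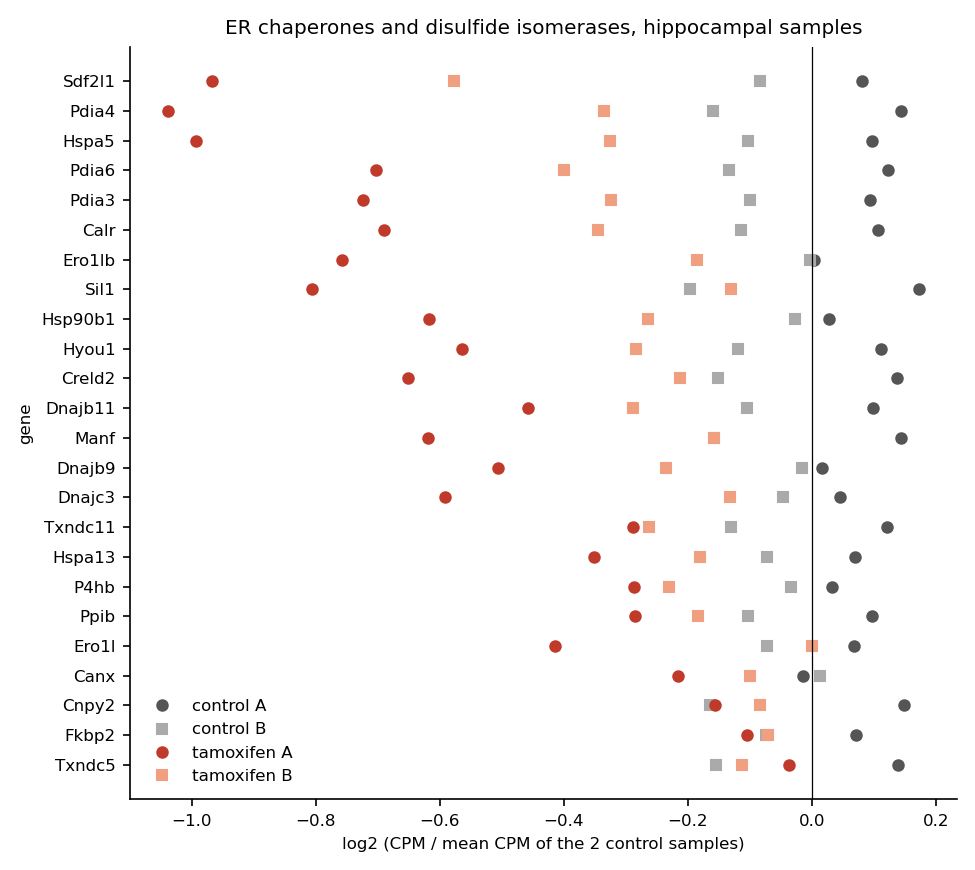
Level of each of the 24 ER chaperone and disulfide isomerase genes in the 4 hippocampal samples, as log2 of its CPM over the mean CPM of the 2 control samples; grey points are controls, red and orange points tamoxifen. Tamoxifen A (red circles) lies farthest left for most genes, and tamoxifen B (orange squares) lies between it and the controls for most.

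The 4 samples fell in the same order for choroid plexus markers as for the ER list. The ER list averaged 5.45, 5.27, 4.84 and 5.14 on the log2(CPM + 0.5) scale in control A, control B, tamoxifen A and tamoxifen B, and the 10 choroid plexus markers averaged 7.60, 6.79, 0.69 and 6.72. Leaving out tamoxifen A left 24 of 24 ER members below 0 with a median of -0.22, and leaving out tamoxifen B gave -0.59. Both of these fits kept control A, the sample highest in choroid markers (7.60). The median was -0.27 without control A, with 22 of 24 below 0, and -0.45 without control B. Tamoxifen B and control B were close in choroid markers (6.72 and 6.79) and stood at 5.14 and 5.27 for the ER list. Most members were lower in tamoxifen B than in control B, but not all. Control B and tamoxifen B read 21.2 and 22.2 CPM for Sil1, 9.8 and 10.3 for Ero1l and 27 and 27.8 for Txndc5. They read 17.3 and 18.3 CPM for Cnpy2 and 43.2 and 43.3 for Fkbp2, and Manf was equal at 26.7 CPM. The 8 cortical libraries form 4 summed samples, in which the ER list averaged 4.71 and 4.61 in controls and 4.88 and 4.74 after tamoxifen, with choroid markers at 3.77, -0.15, 6.21 and -0.26. The part of choroid plexus content in the hippocampal ER result was not tested.

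**Figure D2:**
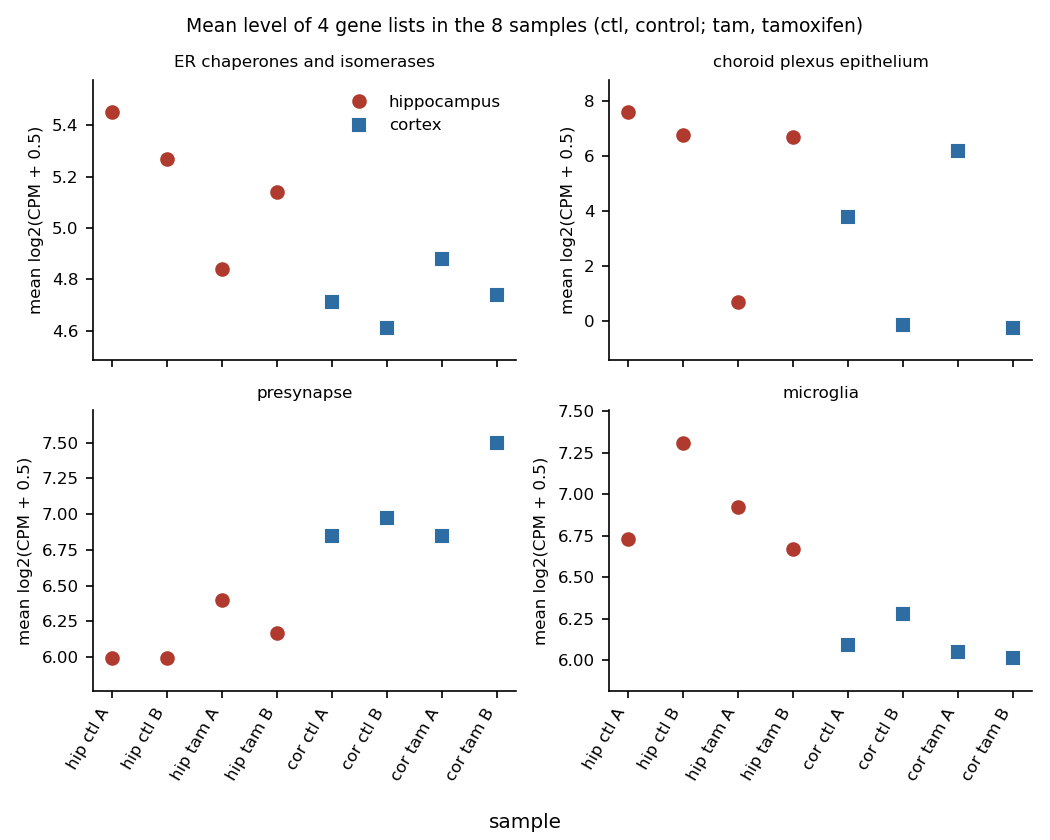
Mean log2(CPM + 0.5) of 4 gene lists in the 4 hippocampal samples (red circles) and the 4 cortical samples (blue squares). The ER list is lowest of the hippocampal samples in tamoxifen A (4.84), the sample in which choroid plexus markers average 0.69, where presynaptic genes average 6.40, and microglial genes are highest in control B (7.31).

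The sensors and targets of the unfolded protein response were mostly below 0 as well. Of 21 tested, 17 were below 0, 6 had all tamoxifen libraries below the controls and 1 had an unadjusted p under 0.05, with a median of -0.16. Xbp1, the transcription factor made by splicing in ER stress, was at 42.5, 36.3, 28.5 and 32.7 CPM (-0.37 ± 0.16), and its sensor kinase Ern1 at 10.9, 11.9, 8.53 and 10.2 CPM. The channel protein of ER-associated degradation Derl1 read 46.1, 42.0, 34.4 and 36.8 CPM (-0.31 ± 0.12). The arm that leads through Atf4 to the pro-apoptotic factor Ddit3 did not separate the groups: Atf4 was at 54.5, 65.6, 57.0 and 58.4 CPM and Ddit3 at 20.9, 19.9, 20.4 and 21.3 CPM (0.03 ± 0.12).

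Enzymes that trim N-linked sugar chains in the ER and Golgi stood lower as well. Of 16 tested, 14 were below 0, 8 had separate libraries, 4 had an unadjusted p under 0.05 and the median was -0.27. Man1a2, a Golgi mannosidase that removes mannose residues, had the smallest unadjusted p of the 24 named genes (0.000829). It stood at 48.4 and 57.8 CPM in the controls and 28.8 and 29.0 CPM in the tamoxifen samples (chr3:100562208-100685503 in mm10, ENSMUSG00000008763). The 2 tamoxifen samples were nearly equal. The part of choroid plexus content in the Man1a2 difference was not tested. The log2 fold change was -0.88 ± 0.16 (edgeR adjusted p = 1, DESeq2 adjusted p = 0.00885, limma voom adjusted p = 0.0343). Its paralog Man1a stood at 40.2, 36.7, 16.6 and 25.9 CPM (-0.85 ± 0.30), with tamoxifen A the lowest. The glucosidase subunits Prkcsh (50.1, 43.3, 34.3 and 40.1 CPM) and Ganab (78.6, 70.6, 57.7 and 65.4 CPM) each had both tamoxifen samples lower. In cortex Man1a2 also stood lower, at 55.2 and 66.5 CPM in controls and 39.0 and 32.6 CPM after tamoxifen, and the 2 regional effects differed by -0.11 ± 0.22. Man1a did not share this: its cortical log2 fold change was 0.38 ± 0.30.

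The other genes among the 12 named as lower have varied roles. Fam134b, a receptor that takes pieces of the ER into autophagy, was at 27.7 and 27.6 CPM in the controls and 16.6 and 20.1 CPM after tamoxifen (-0.59). Sepn1, a selenoprotein of the ER membrane, was at 23.7, 25.3, 16.3 and 16.4 CPM (-0.59 ± 0.13). Tgfbi, a secreted matrix protein, was at 7.29, 7.95, 3.67 and 4.84 CPM, and the matrix protein gene Npnt at 9.15, 12, 6.31 and 6.46 CPM. Tmem64 (28.5, 28.0, 19.7 and 21.4 CPM), the deubiquitinase Otud1 (19.0, 20.1, 13.7 and 14.7 CPM), Tmem86a and Zfp511 were also among the 12, as were the ER members Sdf2l1 and Pdia6. The named genes are the 12 in each direction of smallest p with separated libraries, so their separation and their small spread follow from the rule.

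The cytosolic chaperones did not follow the ER ones as a set, with 16 of 22 below 0 and a median of -0.12 (-0.01 without tamoxifen A). The inducible Hsp70 genes stood higher. Hspa1b was at 13.2 and 25.9 CPM in the controls and 39.5 and 58.4 CPM after tamoxifen (1.32 ± 0.40; edgeR adjusted p = 1, limma voom adjusted p = 0.0486), and Hspa1a at 9.04, 17.7, 24.8 and 32.7 CPM (1.11 ± 0.38). These are near-identical copies, so how their reads were split is uncertain. The constitutive Hspa8 was at 485, 461, 392 and 448 CPM, and the heat shock factor Hsf1 at 17.9, 18.1, 17.3 and 17.2 CPM.

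Synaptic genes stood higher in the tamoxifen samples. Of 31 presynaptic genes tested, 30 were above 0 with a median of 0.29, and for 19 all tamoxifen libraries were above the controls, against 8.63% of genes. Only 2 had an unadjusted p under 0.05, Syt2 and Pclo. Syt2, a calcium sensor of fast transmitter release, was at 2.69, 3.76, 8.29 and 4.42 CPM (0.98 ± 0.34), and the active zone scaffold Pclo at 46.6, 50.7, 72.8 and 63.0 CPM (0.48 ± 0.19). Snap25, a vesicle fusion protein, read 133, 176, 224 and 210 CPM. Postsynaptic scaffolds had a smaller median of 0.15, with 24 of 26 above 0 and 8 separated.

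Receptor subunits showed the same sign with tamoxifen A the highest sample. All 19 ionotropic glutamate receptor genes were above 0, 7 with separated libraries, and the median was 0.34. Gria4, an AMPA receptor subunit, was at 13.2 and 14.4 CPM in the controls, 37.4 CPM in tamoxifen A and 14.9 CPM in tamoxifen B (0.92 ± 0.39), so its difference lay in 1 sample. Grin2d, an NMDA receptor subunit, was more even, at 9.36, 9.66, 13.5 and 11.9 CPM (0.42 ± 0.13). Of 13 GABA-A receptor subunits 12 were above 0 with a median of 0.26, Gabra3 among them at 20.6, 19.6, 29.2 and 25.8 CPM. Without tamoxifen A these medians were 0.12 for glutamate receptors, 0.07 for GABA-A receptors, 0.03 for postsynaptic and 0.18 for presynaptic genes. Those without any other sample were between 0.15 and 0.46.

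Markers of inhibitory neurons, which release GABA, had the highest median of the lists. All 12 stood above 0 (median 0.51), 8 with separated libraries and 2 with an unadjusted p under 0.05. Gad1 and Gad2 make GABA. Gad1 was at 20.8 and 24.1 CPM in the controls and 33.0 and 30.4 CPM after tamoxifen (0.50 ± 0.26), and Gad2 at 10.4, 12.6, 18.7 and 15.1 CPM. Dlx1, a transcription factor of interneurons, was at 5.40, 4.76, 7.37 and 7.41 CPM (0.54 ± 0.19). The list median ran from 0.25 to 0.53 when a sample was left out, lowest without tamoxifen A. The 9 excitatory markers had a median of 0.09 (0.01 without tamoxifen A and 0.26 without tamoxifen B), none with separated libraries. The vesicular glutamate transporter Slc17a7 was at 381, 333, 407 and 328 CPM.

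Of the 20 genes in the neuropeptide list 17 were above 0, with a median of 0.36, or 0.14 without tamoxifen A. The list also holds Ecel1, which does not encode a neuropeptide. Ecel1, a membrane endopeptidase-like protein of neurons, stood at 1.52 and 1.07 CPM in the controls and 5.09 and 4.50 CPM after tamoxifen (chr1:87147655-87156521 in mm10, ENSMUSG00000026247). Its log2 fold change was 1.88 ± 0.39, the largest of the 24 named genes (edgeR adjusted p = 1, DESeq2 adjusted p = 0.00707). Cartpt, an appetite-related peptide, was low throughout at 0.360, 0.256, 1.13 and 0.487 CPM. Sst, the somatostatin of a class of interneurons, was at 9.32, 9.33, 13.2 and 13.5 CPM.

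Cortical samples carried more of these neuronal transcripts than hippocampal controls did. The presynaptic list averaged 5.99 and 5.99 in hippocampal controls, 6.40 and 6.17 in hippocampal tamoxifen samples and 6.85 and 6.97 in cortical controls, and the inhibitory list 2.78 and 2.87, 3.34 and 3.13, and 3.64 and 3.80. The ER list, lower after tamoxifen in hippocampus, was at 4.71 and 4.61 in cortical controls. The hippocampal controls enter both comparisons, so these values are given side by side only, and whether the hippocampal samples differed in the region taken was not tested. The named gene Cit, a kinase of cell division also found in neurons, was at 65.2, 63.5, 107 and 89.0 CPM in hippocampus and 181 and 211 CPM in cortical controls. Elfn1, a synaptic adhesion protein of interneuron targets, was at 14.1, 15, 23.2 and 21.4 CPM and at 23.6 and 29.1 CPM. Unc5d, a netrin receptor, was at 2.93, 2.86, 5.56 and 4.87 CPM and at 6.06 and 7.80 CPM. Proca1, which had the smallest p of the 12 named as higher, was at 4.83, 4.25, 8.39 and 7.52 CPM and at 7.57 and 7.59 CPM. For Tmem86a the order was opposite, with 27.7, 26.0, 14.1 and 19.4 CPM in hippocampus and 9.36 and 8.97 CPM in cortical controls. Each of the 12 genes named as higher had both cortical controls above both hippocampal controls. All genes named as lower except Man1a2 and Zfp511 had both cortical controls below both hippocampal controls. The named genes were picked with the hippocampal controls, which enter this comparison too. Some named genes did not lie between the hippocampal and cortical controls after tamoxifen. Zfp511 was at 7.97, 6.73, 4.44 and 4.41 CPM and at 7.95 and 7.35 CPM in cortical controls. Itih3 was at 44.3, 44.3, 75.5 and 65.5 CPM and at 47.1 and 54.2 CPM. Man1a2 was at 48.4, 57.8, 28.8 and 29 CPM and at 55.2 and 66.5 CPM.

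Markers of hippocampal subfields did not point in 1 direction. The 11 tested dentate granule cell genes had a median of -0.23 with 9 below 0 (-0.06 without tamoxifen A), and their defining factor Prox1 read 17.6, 20.9, 18.8 and 18.8 CPM (-0.03 ± 0.34). The 9 CA1 genes had a median of 0.23 (0.07 without tamoxifen A), with Wfs1, an ER membrane protein of CA1 cells, at 46.6, 44.0, 58.5 and 51.0 CPM, and Man1a as the only member below 0. CA2 and CA3 genes had a median of -0.03, and -0.14 to 0.05 when a sample was left out. Genes of striatal and thalamic neurons, which a hippocampal sample should hold little of, each had a median of 0.27. Of 9 striatal genes 8 were above 0, and of 7 thalamic genes 5. The striatal marker Ppp1r1b was below 0, at 132, 85, 44.1 and 88.5 CPM (-0.71 ± 0.39). So was the thalamic marker Prkcd, at 25.8, 35.9, 28.6 and 24.4 CPM (-0.22 ± 0.20). Ntng1, a thalamic axon guidance protein, was at 2.36, 2.41, 4.72 and 4.20 CPM (0.90 ± 0.30). Among neurogenesis genes Dcx, a marker of immature neurons, read 2.82, 2.62, 5.32 and 3.78 CPM (0.74 ± 0.34) in a list of 15 with 8 above and 7 below 0.

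**Figure D3:**
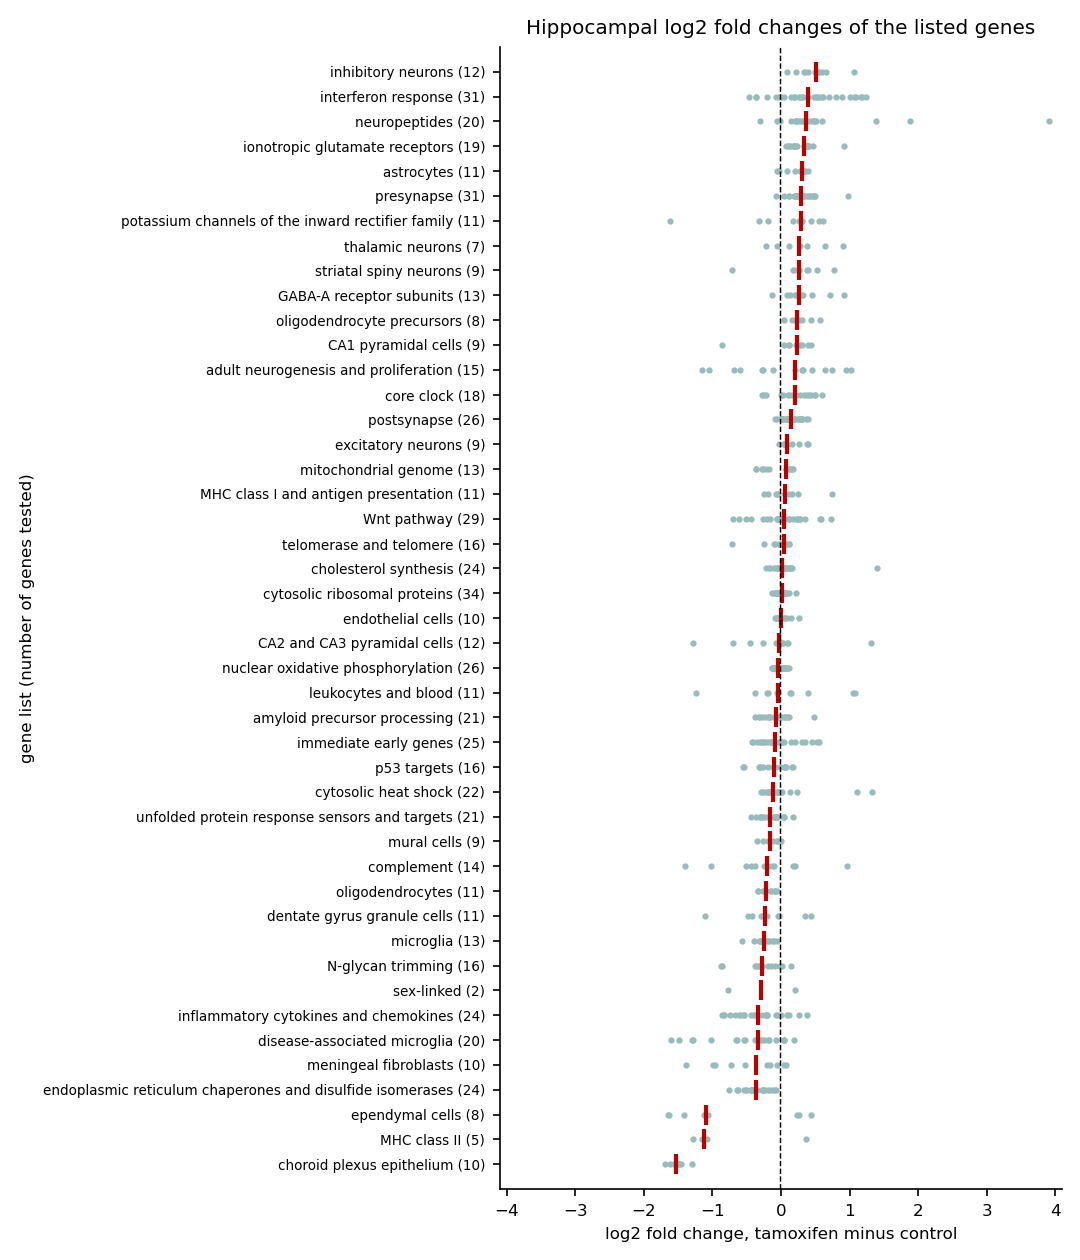
Log2 fold change, tamoxifen minus control, of each tested gene (points) in the 45 lists, with each list's median as a red bar and the median of all 18074 genes as a dashed line. Inhibitory neuron markers have the highest median (0.51), and choroid plexus (-1.53), MHC class II (-1.12) and ependymal markers (-1.09) the lowest.

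Circadian clock genes stood higher. In the clock, activators such as Arntl and Clock drive Per, Cry and output genes, whose products feed back on them, and levels change over the day. Of 18 tested, 15 were above 0, 9 had separated libraries and 6 had an unadjusted p under 0.05 (2.14% of all genes), with a median of 0.20. The repressor Per3 was at 12.9 and 14.4 CPM in the controls and 21.9 and 19.5 CPM after tamoxifen (0.60 ± 0.12). Per2 was at 9.90, 9.37, 12.6 and 12.5 CPM (0.38 ± 0.14) and Cry2 at 42.9, 41.5, 61.9 and 52.1 CPM. Among outputs, Dbp read 44.0, 35.4, 61.8 and 50.5 CPM (0.50 ± 0.16) and Hlf 73.7, 77.7, 106 and 95.8 CPM. The activators differed in sign, with Arntl at 10.8, 12.9, 10.1 and 9.43 CPM (-0.28 ± 0.23) and Clock at -0.22 ± 0.19, but Npas2, the paralog of Clock, at 21.6, 21.2, 29.8 and 24.0 CPM (0.33 ± 0.17). Rorb, a nuclear receptor that activates Arntl, was at 26.2, 25.4, 40.2 and 32.3 CPM (0.49 ± 0.14), and the repressor Nr1d1 was level (61.5, 59.8, 61.6 and 60.3 CPM). The list median stayed between 0.12 and 0.30 when any sample was left out. The sources used here do not give the hour of tissue collection.

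Further genes among the 12 named as higher were the following. Kcnj16, an inward rectifier potassium channel subunit, was at 44.4 and 44.0 CPM in the controls and 68.8 and 65.9 CPM after tamoxifen (0.61 ± 0.12; edgeR adjusted p = 1, limma voom adjusted p = 0.0486). Its partner Kcnj10 was at 323, 356, 432 and 397 CPM (0.29 ± 0.17). Itih3, a matrix-binding protein, was at 44.3, 44.3, 75.5 and 65.5 CPM (0.67 ± 0.15), and Etnppl, an enzyme of phosphoethanolamine breakdown, at 26.2, 30.2, 53.7 and 43.3 CPM (0.78). The citrate carrier Slc13a5 (12.2, 12.3, 19.3 and 16.8 CPM), the peptide carrier Slc15a2 (26.3, 27.6, 37.9 and 37.7 CPM) and Gli3, a factor of hedgehog signalling (14.2, 13.4, 21.0 and 19.1 CPM), were also higher in both tamoxifen samples.

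The astrocyte marker list was mostly above 0. Of 11 tested, 9 were above 0, 5 with separated libraries and 2 with an unadjusted p under 0.05, and the median was 0.31. Gja1, the gap junction protein connexin 43, was at 243, 230, 326 and 281 CPM (0.36 ± 0.13), and Aldoc, a glycolytic enzyme, at 1450, 1450, 2000 and 1800 CPM. Gfap, the filament that reactive astrocytes accumulate, was level at 580, 692, 592 and 659 CPM (-0.02 ± 0.25). The median was 0.14 without tamoxifen A and 0.37 without tamoxifen B.

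**Figure D4:**
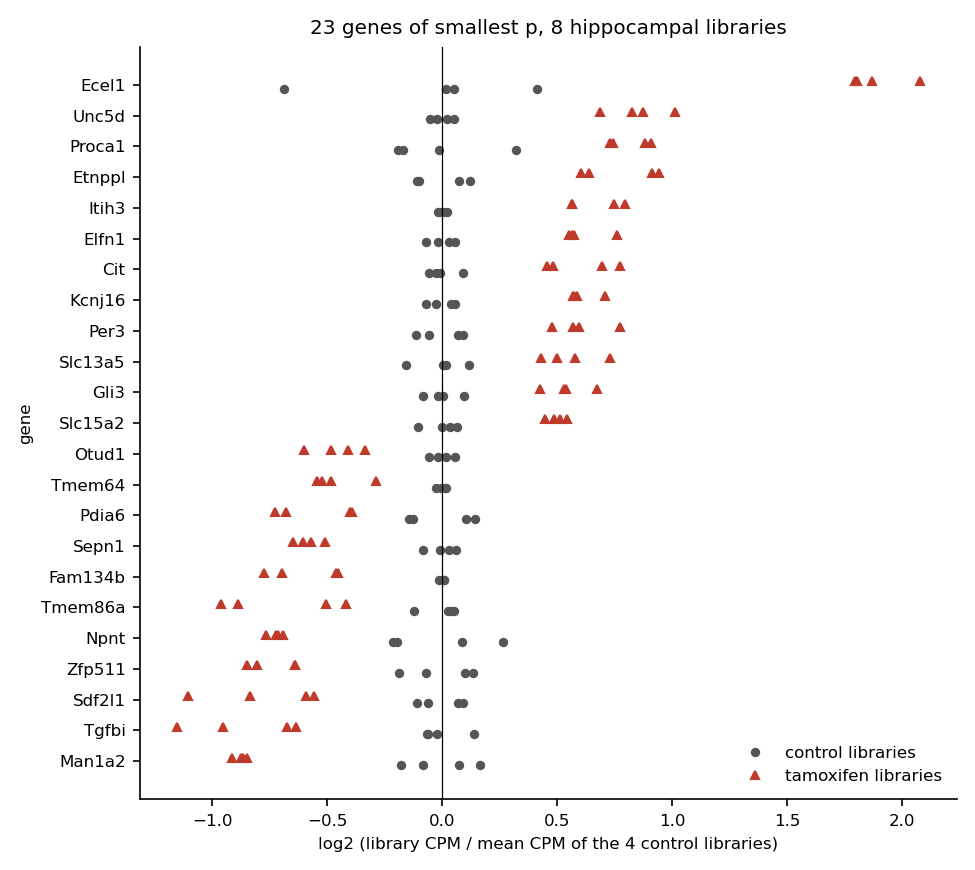
Level of 23 of the 24 genes of smallest p in each of the 8 hippocampal libraries, as log2 of the library's CPM over the mean of the 4 control libraries; grey circles are control and red triangles tamoxifen libraries. Separation and a small spread within groups both follow from the rule that chose these genes, and the tamoxifen samples of Man1a2, the gene of smallest p, stood at 28.8 and 29.0 CPM.

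Genes of the interferon response, an antiviral programme set off by type I interferons through promoter elements bound by STAT and IRF factors, stood higher in part. Of 31 tested, 25 were above 0, 10 with separated libraries and 4 with an unadjusted p under 0.05, and the median was 0.39. Ifit3, which binds viral RNA complexes, was at 4.50 and 4.36 CPM in the controls and 12.2 and 7.66 CPM after tamoxifen (1.16 ± 0.29). The regulator Irf7 was at 2.52, 3.30, 6.52 and 5.22 CPM (1.01 ± 0.35), and Rsad2, the antiviral enzyme viperin, at 2.01, 2.74, 4.17 and 4.14 CPM (0.81 ± 0.32). All these levels are low. Ifit3 has a near-identical neighbour with which its reads could be shared. The median ran from 0.22 without tamoxifen A to 0.51 without control B. In cortex 24 of the 31 were above 0, with a median of 0.32, and 0 of 31 had a difference between regions at an unadjusted p under 0.05. The cortical samples were split, however. On the log2(CPM + 0.5) scale the list averaged 2.02 and 2 in cortical controls, 2.58 in cortical tamoxifen A and 1.82 in cortical tamoxifen B. On average only cortical tamoxifen A stood above the cortical controls.

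The Ifit3 promoter is shown because it carries the core of the interferon-stimulated response element in duplicate, in the 250 bases upstream of the start (chr19:34583279-34583528, plus strand, RefSeq GRCm38.p6), with the matches in capitals.
Ifit3: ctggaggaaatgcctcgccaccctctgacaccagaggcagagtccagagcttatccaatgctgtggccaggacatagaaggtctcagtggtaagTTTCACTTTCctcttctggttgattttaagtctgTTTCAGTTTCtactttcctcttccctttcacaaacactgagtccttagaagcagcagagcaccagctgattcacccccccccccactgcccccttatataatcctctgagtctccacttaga
The matches start 156 and 122 bases upstream and both lie on the opposite strand. The core searched was GAAANNGAAA on both strands, which 978 of 32851 windows hold (2.98%). Of the 31 tested members 22 have a window and 10 of them hold the core.

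Genes that microglia raise in disease stood lower. This programme, described around amyloid plaques, includes lysosomal, lipid and phagocytic genes. Of 20 tested, 16 were below 0, 10 with separated libraries and 4 with an unadjusted p under 0.05, and the median was -0.34. Ctsd, a lysosomal protease that many cells make, was at 831 and 958 CPM in the controls and 546 and 601 CPM after tamoxifen (-0.64 ± 0.22). Clec7a, a phagocytic receptor, was at 1.92, 5.03, 1.19 and 1.67 CPM (-1.28 ± 0.50), Spp1, the secreted osteopontin, at 5.19, 13.4, 2.31 and 4.32 CPM (-1.49 ± 0.52), and Cst7, a protease inhibitor, at 1.36, 3.62, 0.495 and 1.15 CPM. In these 3 genes control B was far above control A, and both tamoxifen samples lay below control A. The lipid carrier Apoe was level (3620, 3530, 3680 and 3680 CPM), and so was the receptor Trem2 apart from control B (41.3, 63.0, 49.0 and 38.7 CPM).

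General microglial markers moved with control B. All 13 had log2 fold changes below 0, with a median of -0.25, which became 0.10 without control B and -0.51 without control A. P2ry12, a purine receptor of resting microglia, was at 124, 178, 134 and 108 CPM, and Cx3cr1, the fractalkine receptor, at 236, 372, 254 and 211 CPM. The median of the disease-associated genes was -0.20 without control B. The part of microglial content in their difference was not tested. Inflammatory cytokines and chemokines followed control B as well, with a median of -0.33 that became 0.08 without it. Ccl3, a chemokine, was at 9.67, 18.5, 8.21 and 9.53 CPM. Complement genes had a median of -0.20, and 0.17 without control B. 

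MHC class II genes, which present antigen on professional presenting cells, followed tamoxifen A. Cd74, their invariant chain, was at 16.7, 23.9, 4.22 and 15 CPM, and H2-Ab1 at 6.67, 6.96, 1.26 and 4.87 CPM (-1.15 ± 0.67). The median of the 5 genes was -1.12, and -0.44 without tamoxifen A. MHC class I genes had a median of 0.06, which was -0.14 without control A and 0.28 without control B, with B2m at 104, 139, 134 and 120 CPM.

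Choroid plexus and ependymal markers showed where tamoxifen A differed. Aqp1, a water channel of the choroid plexus, was at 80.7 and 41.4 CPM in the controls, 0.290 CPM in tamoxifen A and 37.6 CPM in tamoxifen B. Kl, the ageing-related protein klotho, which this epithelium makes, was at 539, 343, 4.57 and 295 CPM. The 10 choroid markers had a median log2 fold change of -1.53, but -0.54 without tamoxifen A and -7.99 without tamoxifen B. Foxj1, a factor of ciliated ependymal cells, was at 33.7, 21.9, 3.22 and 22.3 CPM. Igf2, a growth factor of meninges and choroid plexus, was at 455, 341, 18.5 and 287 CPM. The meningeal fibroblast list as a whole depended less on tamoxifen A. Of its 10 markers 8 were below 0, with a median of -0.37, or -0.35 without tamoxifen A and -0.48 without tamoxifen B. Oligodendrocyte markers had a median of -0.22 (-0.10 without control B), with the myelin glycoprotein gene Mag at 124, 105, 89.7 and 92.2 CPM, and precursor markers a median of 0.24 (0.04 without tamoxifen A), with Gpr17 at 50.8, 46.6, 85.8 and 59.1 CPM.

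Among activity-driven immediate early genes the members differed in sign. Nr4a2, a nuclear receptor, was at 24.4 and 24.5 CPM in the controls and 36.9 and 33.2 CPM after tamoxifen (0.52 ± 0.13), and Nr4a1 at 29.7, 33.9, 36.4 and 45 CPM. Egr1 was at 342, 485, 301 and 323 CPM (-0.41 ± 0.22), and Fos at 253, 393, 295 and 287 CPM, with control B highest in both. Of the 25 genes 10 were above and 15 below 0 (median -0.09), but without control B 21 were above and 4 below 0 (median 0.17), and without control A the median was -0.42. In the Wnt list, 17 of 29 were above 0 (13 of 29 without tamoxifen A), with the receptor Fzd1 at 9.12, 9.57, 14.8 and 13.1 CPM (0.58 ± 0.14) and the ligand Wnt4 at 3.92, 3.33, 5.85 and 6.23 CPM. Amyloid precursor genes had a median of -0.07 over 21. App itself was at 736 and 750 CPM in the controls and 538 and 657 CPM after tamoxifen (-0.31 ± 0.15), and Ncstn, a subunit of the gamma-secretase that cuts its product, at 42.0, 35.1, 25.9 and 33.6 CPM (-0.37 ± 0.17).

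A few genes were nearly absent from the tamoxifen samples. Msx3, a homeobox gene of the dorsal neural tube, was at 1.35 and 1.82 CPM in the controls and 0.0256 and 0.0348 CPM after tamoxifen, that is 161 and 214 reads against 3 and 4. Its log2 fold change was -5.66 ± 0.62 with the smallest edgeR adjusted p in the data (0.333), and DESeq2 called it (adjusted p = 1.174e-11). The predicted gene Gm11223 was at 22.9, 55.9, 2.29 and 2.85 CPM (-3.94 ± 0.53) and Gm10036 at 16.5, 32.9, 0.718 and 0.827 CPM (-5.00 ± 0.54). Reads of such predicted genes can be shared with similar copies, so their values are uncertain. All of these genes had the same sign in cortex, where Msx3 was at 1.65 and 1.10 CPM in controls and 0.0145 and 0 CPM after tamoxifen, and Gm11223 at 39.0, 81.8, 3.77 and 3.47 CPM. Whether the same animals gave both regions is unstated in these sources.

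**Figure D5:**
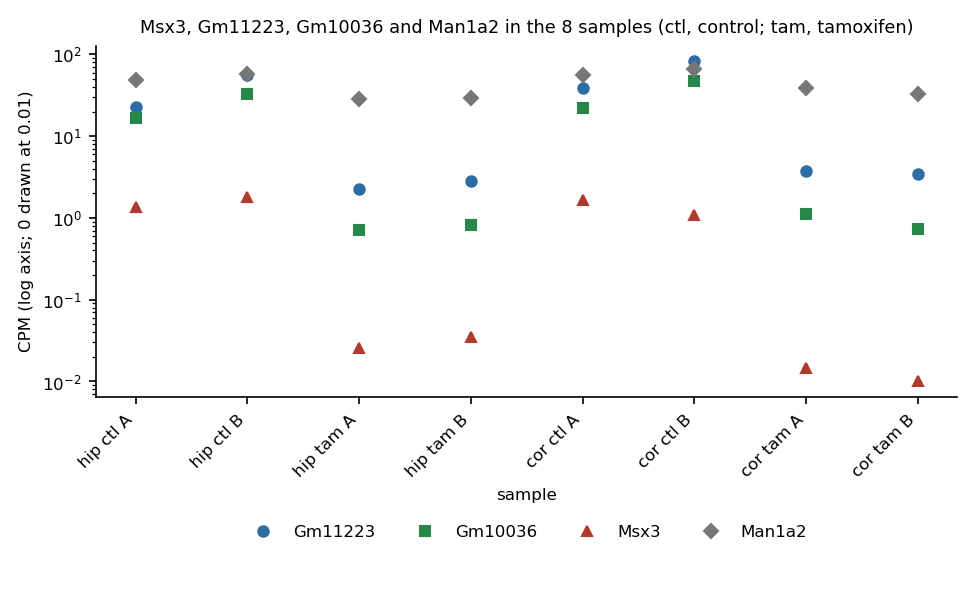
CPM on a log axis of Msx3, Gm11223, Gm10036 and Man1a2 in the 4 hippocampal and 4 cortical samples, with a value of 0 drawn at 0.01. In both regions the tamoxifen samples lie below the controls for each of these genes, by far the least for Man1a2 (48.4 and 57.8 against 28.8 and 29.0 CPM in hippocampus).

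Msx3 lies at chr7:140047300-140049140 in mm10, and 19 other tested genes lie within 500 kb of it. Only Zfp511, a zinc finger gene 6.7 kb away (chr7:140036391-140040605), had an unadjusted p under 0.05, at 7.97, 6.73, 4.44 and 4.41 CPM (-0.73 ± 0.19). In cortex Zfp511 was at 7.95, 7.35, 4.48 and 6.12 CPM, and the 2 regional effects differed by -0.20 ± 0.27. Tubgcp2, at 11.0 kb, had a log2 fold change of 0.05 ± 0.18. Of genes with a mean of at least 1 CPM in a group and separated libraries, 2 exceeded a log2 fold change of 3 in the other direction, each through 1 sample: Mybpc1, a myosin-binding protein, was at 0.418, 0.222, 6.12 and 0.583 CPM and the pseudogene Dnajc19-ps at 0.0418, 0.0511, 0.0940 and 2.09 CPM.

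The effect of tamoxifen was compared between regions in the same edgeR fit, as the difference of the hippocampal and the cortical log2 fold change. Of 18074 genes 0 passed an adjusted p of 0.05, the lowest being 0.889, and 981 fell under 0.05 unadjusted. That number is near the share of 0.05 that would pass if no gene differed. The median difference over all genes was -0.0366. Cortical tamoxifen B stood apart from the other cortical samples. Mitochondrial genes took 20.1 and 20.69% of the counts in its libraries, against 29.68 to 32.08% in the other cortical libraries. Its endothelial markers averaged 5.31 on the log2(CPM + 0.5) scale, against 6.43, 6.32 and 6.45, and its excitatory markers 6.89, against 5.93, 6.09 and 6.01. The part of this sample in the regional differences was not tested. In cortex 19 of the 24 ER members stood above 0, with a median of 0.20. Their median difference was -0.51, and 10 had an unadjusted p under 0.05, among them Pdia6 (-0.90 ± 0.22), Sdf2l1 (-1.05 ± 0.26) and Hspa5 (-1.01 ± 0.39). Choroid plexus markers were on opposite sides of 0 in the 2 regions too, with a cortical median of 2.51 and Ttr at 1010, 4.62, 5690 and 2.79 CPM.

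Astrocyte genes differed between regions with the opposite sign. All 11 stood below 0 in cortex (median -0.42), so that the median difference was 0.71 and 7 of 11 had an unadjusted p under 0.05. The astrocyte list averaged 8.24 and 8.33 in cortical controls, 7.99 in cortical tamoxifen A and 7.73 in cortical tamoxifen B. For Kcnj16 the difference was 0.95 ± 0.17 (unadjusted p = 0.00074, edgeR adjusted p = 0.889). Man1a2 and Sepn1 were lower in both regions, Sepn1 with a cortical log2 fold change of -0.49 ± 0.13 and a difference of -0.10 ± 0.18. A difference that did not pass the test does not show that the regions responded alike.

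Lists of housekeeping and stress genes had medians near that of all genes with all 4 samples in the fit. The 34 cytosolic ribosomal protein genes had a median of 0.01, the 24 cholesterol synthesis genes 0.01, the 26 nuclear oxidative phosphorylation genes -0.04, the 13 mitochondrially encoded genes 0.07 and the 16 p53 targets -0.10. Cholesterol synthesis turned with the control left out, from 0.17 without control A (21 of 24 above 0) to -0.15 without control B (18 of 24 below 0). Oxidative phosphorylation did so too, from 0.08 (22 of 26 above 0) to -0.15 (22 of 26 below 0). The p53 median was -0.21 without control A and -0.02 without control B. Cdkn1a, the p53-driven inhibitor of cell division, was at 9.26, 13.1, 8.77 and 9.20 CPM. Endothelial markers had 5 genes above and 5 below 0, but 10 of 10 above 0 without control B (median 0.26) and 9 of 10 below 0 without control A (-0.19). Leukocyte and blood markers had a median of -0.04, which ran from -0.20 without tamoxifen B to 0.24 without tamoxifen A.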

How the data were processed

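Total RNA was sequenced in all 16 libraries. The submitters' processing notes name STAR, HTSeq and the build mm10. Their versions, the annotation release and the strand setting were not given in the sources used here. Counts as deposited are whole numbers of reads per gene, not normalized, for 39179 genes per file. The deposited RPKM values, per the file headers, are scaled to length and depth by the authors and were used only to rank ER genes by level.

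Rows that name no gene were left out. Of all counts in the hippocampal libraries, 28.72 to 31.67% were multiply aligned and 3.645 to 6.351% lay outside annotated genes. Neighbouring libraries were summed to 8 samples, 2 per group, holding 104682949 to 108293362 counts in hippocampus. Genes were filtered with filterByExpr, scaled with TMM and fitted with 1 mean per group in edgeR 4.0.16 (R 4.3.3) by the robust quasi-likelihood test on 4 residual degrees of freedom. Benjamini-Hochberg adjustment ran over 18074 genes, with a threshold of 0.05. SE is the log2 fold change over the square root of F. DESeq2 1.42.0, limma 3.58.1 voom and other settings were alternatives. The edgeR script was tested on simulated data.

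The members, the 45 lists (738 entries, 717 tested) and the naming rule were chosen with earlier results of these data known. The genes named are Tert, in each direction the 12 of smallest p with a mean of at least 1 CPM and separated libraries (predicted, pseudogene and mitochondrial entries left out), for each list up to 5 members of smallest p and its first 3 entries, and genes of any kind with separated libraries beyond a log2 fold change of 3. A few of the genes so chosen are not reported here. List genes were matched by symbol. Replicate numbers were not used to pair the samples. Same-numbered libraries of the 2 groups correlated negatively. Neighbouring libraries are near repeats, so these correlations cannot decide whether the numbers pair animals. Gene coordinates come from the files (mm10). Promoters are RefSeq's, on GRCm38.p6. Exact permutation tests were two-sided.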

Additional observations from a re-analysis of the deposited data

Results flagged for a closer look

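Over 60 groups of 4 libraries examined (the named genes in control and tamoxifen libraries), 3 had a library far from the other 3. The limit used marks about 1 in 20 groups of independent values. Neighbouring libraries are near repeats and most of these genes were picked for separated libraries, so that rate does not apply here. The highest tamoxifen library of Kcnj16 was at 72.2 CPM, while the others were at 65.5, 65.8 and 66.4 CPM. The highest tamoxifen library of Elfn1 was at 24.7 CPM, above 21.4, 21.6 and 21.7 CPM. The lowest control library of Tmem86a was at 24.7 CPM, below 27.3, 27.6 and 27.8 CPM.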

How the results depend on the processing

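With 2 samples per group the edgeR test called 0 genes, and 0 under every scaling, filter and leave-out tried, 387 genes being higher and 266 lower at an unadjusted p under 0.05. Counting neighbouring libraries as separate samples gave 318 called genes over 16 libraries (1495 higher and 1446 lower at p under 0.05) and 555 over the 8 hippocampal ones (2194 and 1622), where p-values are too small if neighbours are repeats. DESeq2 and limma voom called 9 each, with 611 higher and 1094 lower at p under 0.05 in voom. The 4 hippocampal samples alone gave 631 higher at p under 0.05. Leaving out a sample or library gave 113 to 444 higher and 85 to 895 lower, both lowest without tamoxifen A, both highest without tamoxifen B. Without control A 200 were higher. With the sample letter as a replicate block 0 genes were called, with 275 higher and 170 lower. Same-numbered libraries had correlations of -0.132 to -0.173. Crossing the letters, an alternative chosen after seeing the data, gave 0 called, with 324 higher and 630 lower. The difference between regions called 0 genes, but 867 with 16 libraries and 9 in DESeq2, and 0 with the replicate block. The cause of these differences was not tested. Tert stayed below 0 under each pseudocount (-0.609 to -0.420), but its log2 fold change was 0.20 without control B.

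All 24 named genes kept their sign under 23 alternatives. DESeq2 called 2 of them and voom 5. Of the 45 list medians, 15 changed sign under some alternative, 10 of these only when a sample or library was left out. The hippocampal summed samples held at least 104682949 counts and the cortical ones 83527470 to 99767250.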
